A study of Mus musculus with 18 samples.

Results

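The enzymes that turn tryptophan into kynurenine and its next products were followed in primary murine renal proximal tubular epithelial cells (RPTEC) stimulated with TWEAK in the absence or presence of NIK SMI1. The set held 7 genes of the 36528 in the files, Ido1, Ido2, Tdo2, Afmid, Kmo, Kynu and Haao, and was put together with earlier results of these samples known, Ido2 being selected on its response to TWEAK and NIK SMI1. The values of the 7 genes are therefore given as a description, without p-values. The RPTEC came from C57BL/6 mice through a commercial supplier and received vehicle (DMSO), TWEAK at 100 ng/mL, or TWEAK at 100 ng/mL together with 3 µM NIK SMI1, for 6 h or 24 h. RNASeq was performed on 3 samples in each of these 6 groups, 18 in total. No group received NIK SMI1 alone, and the sources used here do not say whether the 3 samples of a group came from separate cultures or animals, so the spread between them may be technical.

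Ido1, Ido2 and Tdo2 encode dioxygenases that open the indole ring of tryptophan, the first and rate-limiting step of the pathway. Afmid encodes the formamidase that turns the resulting N-formylkynurenine into kynurenine, Kmo the monooxygenase that hydroxylates kynurenine, Kynu the kynureninase that cleaves the side chain, and Haao the dioxygenase that leads on towards quinolinic acid and NAD. Tdo2 is known mainly from liver, Ido1 as an interferon-inducible enzyme of immune and epithelial cells, and Ido2 from liver, kidney and antigen-presenting cells. TWEAK is a TNF family cytokine that binds the receptor encoded by Tnfrsf12a, and the kinase NIK, encoded by Map3k14 and the target of NIK SMI1, drives the non-canonical NF-κB pathway, in which p100 (Nfkb2) is processed to p52 and partners with RelB.

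Ido2 and Ido1 arose as neighbouring copies, and the question whether a short read could be counted on the wrong one bears on every value below. In the GRCm38 assembly (GENCODE M21), which is not the build 37 that the authors used, Ido2 lies on the minus strand at chr8:24531892-24576333 and Ido1 on the same strand at chr8:24584136-24597009, with 7802 bases between them. The most similar ungapped stretch of 50 coding bases, 50 being the read length given in the study's methods, is shown for both genes because it is where miscounting would be easiest. It covers coding bases 238 to 287 and lies within exon 3 of 10 of either transcript, at chr8:24553749-24553798 in Ido2 and at chr8:24593121-24593170 in Ido1. Both sequences are written 5′ to 3′ along the coding strand, and capitals mark the bases that differ between the genes.
Ido2: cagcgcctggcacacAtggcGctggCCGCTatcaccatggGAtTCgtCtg
Ido1: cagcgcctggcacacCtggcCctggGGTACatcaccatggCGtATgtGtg
Even here 12 of 50 bases differed, and the median over the 1166 coding windows of Ido2 was 22 mismatches to the closest window of Ido1. None of the 3630 windows of the Ido2 transcript was also found among the 1776 of Ido1 (0 shared).

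Before the enzymes, the samples themselves were checked. Between 18040966 and 51956444 reads were counted per sample, so that 3 reads corresponded to 0.0577 to 0.166 CPM (counts scaled to equal library size). Levels under 3 reads are given below only as what the counted reads amount to. The 6 epithelial markers summed to 7207 to 9102 CPM in every sample, whereas of 10 proximal tubule markers only 5 passed the filter on low counts, the 10 summed to 13.7 to 18.9 CPM, and Slc34a1, Slc22a6 and Miox had at most 1 read in any sample. Reads of the pancreatic islet genes Ins1, Ins2 and Gcg were present in 14 samples (2.56 to 16.9 CPM) and absent from 4, TWEAK replicate 2 at 24 h and all 3 samples with NIK SMI1 at 24 h. Iapp, another islet gene, had 10 reads in that TWEAK sample and 2, 0 and 2 in those with NIK SMI1. Islet reads below means reads of Ins1, Ins2 and Gcg. Of 5 markers of hepatocytes, the cells best known for Tdo2, Alb and Cyp2e1 had at most 1 read in any sample, Apoa1 had 0 and Cps1 at most 3. The remaining one, Ttr, had 243 reads in all and up to 32 in a sample, and was the only one tested. It had 0, 1, 0 and 0 reads in the 4 samples without islet reads. The filter of the study's methods, over 10 reads in 4 samples or more, left 15521 genes for testing.

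Ido2 (Entrez 209176) was nearly silent in unstimulated RPTEC and was counted in all samples given TWEAK alone. At 6 h the vehicle samples had 1, 0 and 2 reads and the TWEAK samples 15, 38 and 27. At 24 h the vehicle samples had 0, 1 and 0 reads and the TWEAK samples 27, 60 and 69. No vehicle sample reached any TWEAK sample at either time. On the CPM scale the mean level was 0.0236 ± 0.0207 (SD, n = 3) with vehicle and 0.633 ± 0.176 with TWEAK at 6 h, and 0.0169 ± 0.0293 and 1.37 ± 0.243 at 24 h. Both vehicle means lay under the level of 3 reads in a sample. Reads summed over the 3 samples gave 80 against 3 at 6 h, a 26.1-fold higher level (95% exact interval 8.61 to 129), and 156 against 1 at 24 h, a 116-fold higher level (20.6 to 4624). These intervals cover counting error only, and their width comes from the few reads in the vehicle groups. In a bulk sample, more cells that express Ido2 and more Ido2 RNA per cell cannot be told apart.

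Ido2 was lower in the presence of NIK SMI1 at both times, with the larger ratio at 24 h. In the samples with TWEAK and NIK SMI1 there were 7, 5 and 3 reads at 6 h and 1, 2 and 1 at 24 h. All 6 lay below every sample given TWEAK alone at the same time. The mean level was 0.187 ± 0.018 CPM at 6 h and 0.0377 ± 0.0183 CPM at 24 h (SD, n = 3). Expressed as a ratio of summed reads, TWEAK alone was 3.43-fold higher than TWEAK with NIK SMI1 at 6 h (95% exact interval 1.96 to 6.41) and 38.4-fold higher at 24 h (14.7 to 143). Of the CPM gained with TWEAK over vehicle, 26.8 ± 2.96% was left with NIK SMI1 at 6 h and 1.53 ± 1.35% at 24 h, the SD covering the 3 samples with NIK SMI1 only. Leaving out 1 sample of the time point gave 23.0 to 29.8% at 6 h. At 24 h it gave 0.782 to 2.74%, with 2.74% without vehicle replicate 2, 0.913% without vehicle replicate 1 or 3 and 0.782% without NIK SMI1 replicate 2, since that value rests on 1 vehicle read and 4 reads with NIK SMI1.

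**Figure D1:**
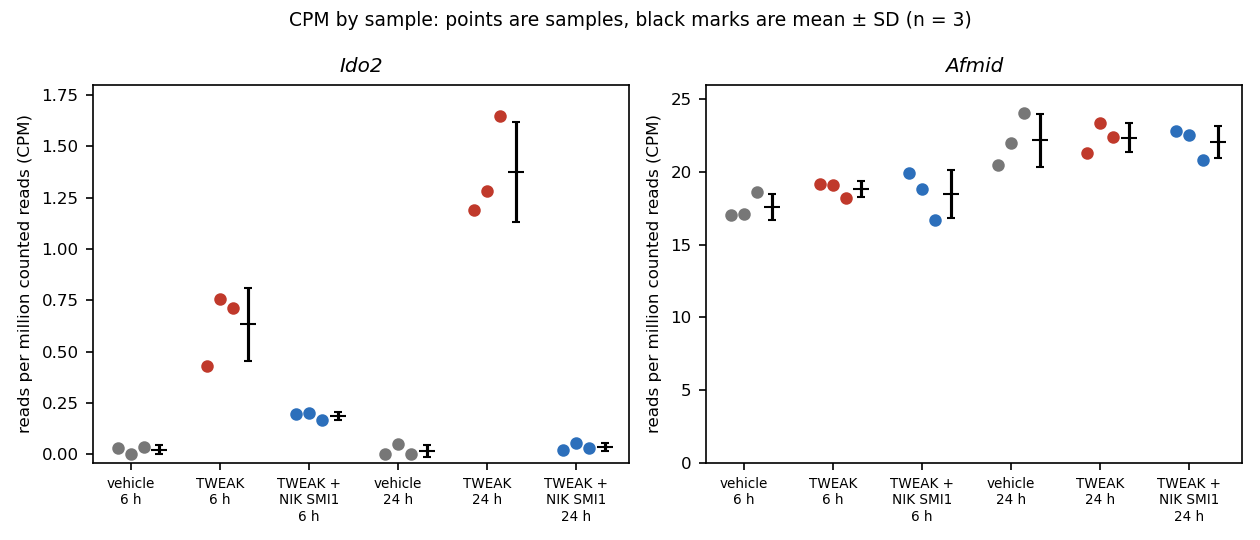
Levels of Ido2 and Afmid in CPM by treatment and time, with a linear axis for each gene. Points are the 3 samples of a group and black marks the mean ± SD. The Ido2 samples with TWEAK at 24 h lie between 1.19 and 1.65 CPM, above all others, while Afmid stays between 16.7 and 24.1 CPM throughout.

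The 6 groups could be ordered only in part for Ido2. TWEAK at 24 h stood first, with its lowest sample (1.19 CPM) above the highest of TWEAK at 6 h (0.756 CPM), and the ratio of the group means was 2.17. TWEAK at 6 h came next, with a lowest sample of 0.431 CPM, followed by TWEAK with NIK SMI1 at 6 h (0.166 to 0.2 CPM), which still lay above every vehicle sample of that time. Summed reads were 15 against 3 in that last comparison, a 7.61-fold higher level (2.15 to 41). The remaining groups did not differ beyond their spread. TWEAK with NIK SMI1 at 24 h (0.0226 to 0.058 CPM), vehicle at 6 h (0 to 0.0385 CPM) and vehicle at 24 h (0 to 0.0507 CPM) overlapped, none of these samples held more than 2 reads, and a difference between them was not detectable at this depth.

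In the fit across all 15521 tested genes, Ido2 ranked 6th from the highest log2 fold change for TWEAK at 6 h, with 4.52 (SE 0.55), and 4th at 24 h, with 6.46 (SE 0.61). For NIK SMI1 with TWEAK against TWEAK it ranked 21st from the lowest at 6 h, with −1.75 (SE 0.41), and 11th at 24 h, with −5.12 (SE 0.47). Fitted values of a gene with so few vehicle reads depend on the prior count of the tool. Leaving out vehicle replicate 2 at 24 h, the only sample of its group with a read, moved the 24 h value to 8.60, and leaving out vehicle replicate 1 moved it to 5.61. At 6 h the value was 5.15 without vehicle replicate 3 and 4.04 without vehicle replicate 2. The effect of NIK SMI1 at 24 h moved to −4.81 without replicate 1 and −5.53 without replicate 2 of the samples with NIK SMI1, and −5.02 was obtained when only the 4 samples without islet reads were kept for that comparison.

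Ido2 passed the filter on low counts only through the 6 TWEAK samples, as no other sample had more than 10 reads. Its place among the tested genes therefore required a difference. Per exon length it remained a weakly expressed gene, at 0.379 ± 0.0665 RPKM (the authors' value, reads scaled by exon length and by the size of the library; SD, n = 3) with TWEAK at 24 h, where 13.5% of the tested genes had a lower mean RPKM. With TWEAK at 6 h it was at 0.175 ± 0.0489 RPKM, with 8.03% of the tested genes below it.

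The other dioxygenases of the first step were at the limit of detection. Ido1 (Entrez 15930) had 5 reads in all 18 samples together and never more than 1 in a sample, with 1 read among the 3 TWEAK samples at 6 h and 1 among those at 24 h. Tdo2 (Entrez 56720) had 11 reads in total. Its counts with TWEAK were 0, 1 and 2 at 6 h and 0, 3 and 2 at 24 h, against 0, 2 and 0 and 1, 0 and 0 with vehicle, and the groups overlapped. No read of Tdo2 was found in any of the 6 samples with NIK SMI1 (0, 0 and 0 at both times), where the limit set by 3 reads lies within 0.0577 to 0.166 CPM. Neither gene gave a level that could be compared between treatments at this depth.

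**Figure D2:**
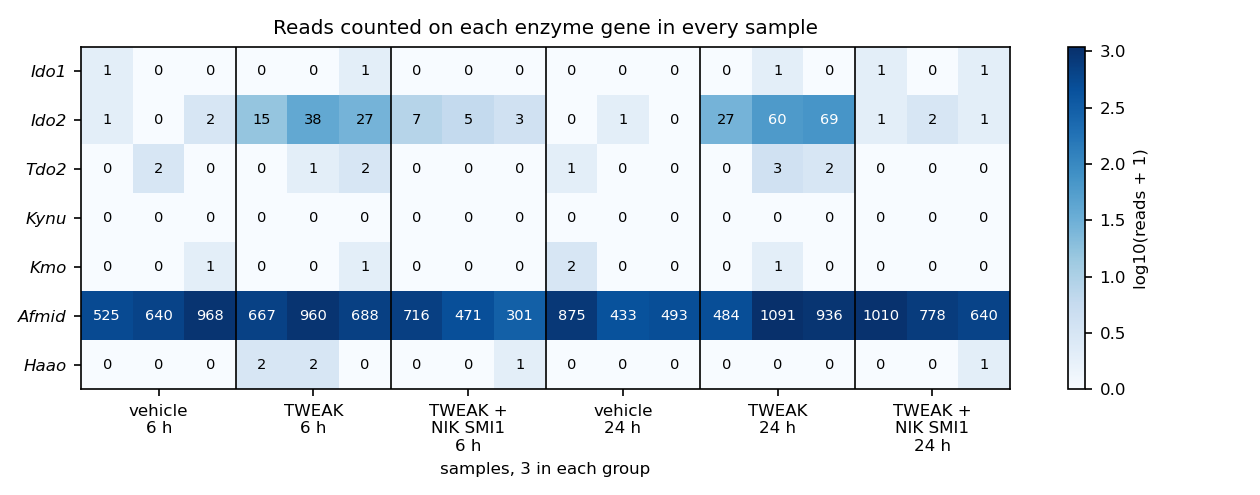
Reads counted on each of the 7 enzyme genes (rows) in each of the 18 samples (columns, grouped by treatment and time); shading gives log10(reads + 1) and the printed numbers are the counts. Afmid has 301 to 1091 reads in every sample, Ido2 has more than 10 only in the 6 TWEAK samples, and no other enzyme exceeds 3 reads.

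Afmid (Entrez 71562), the formamidase of the second step, was the only enzyme of the set expressed at a steady and well measured level. At 6 h it had 525, 640 and 968 reads with vehicle, 667, 960 and 688 with TWEAK, and 716, 471 and 301 with TWEAK and NIK SMI1. These follow the depth of the samples, and in CPM the means were 17.6 ± 0.91, 18.8 ± 0.552 and 18.5 ± 1.65 (SD, n = 3). At 24 h the counts were 875, 433 and 493 with vehicle, 484, 1091 and 936 with TWEAK, and 1010, 778 and 640 with TWEAK and NIK SMI1, with means of 22.2 ± 1.81, 22.4 ± 1.01 and 22.1 ± 1.09 CPM. The treatments overlapped at both times.

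For Afmid the change with TWEAK was bounded closely. Summed reads gave a ratio of TWEAK to vehicle of 1.06 at 6 h (95% exact interval 1 to 1.13, counting error only) and 1.04 at 24 h (0.978 to 1.11). The ratio of TWEAK with NIK SMI1 to TWEAK was 1 at 6 h (0.937 to 1.07) and 0.982 at 24 h (0.928 to 1.04). The fitted log2 fold changes were 0.11 (SE 0.07) and 0.03 (SE 0.07) for TWEAK and −0.02 (SE 0.07) and −0.03 (SE 0.07) for NIK SMI1. Time made a larger difference than treatment, as all 3 vehicle samples at 24 h (20.5 to 24.1 CPM) lay above those at 6 h (17 to 18.6 CPM), a ratio of 1.22 (1.15 to 1.3). Per exon length Afmid was at 3.73 to 5.46 RPKM over all samples, against 0.454 RPKM in the highest sample for Ido2. In GENCODE M21, at chr11:117825924-117839908, 44.2% of its exonic bases are shared with Gm20708 on the same strand and 2.35% with Tk1 on the opposite strand, so its count may hold reads of these genes. The library kit does not keep the strand.

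The enzymes downstream of kynurenine were not detected at a usable level. Kmo (Entrez 98256) had 5 reads in all samples together and at most 2 in a sample, Haao (Entrez 107766) had 6 in total and at most 2, and Kynu (Entrez 70789) had 0 reads in each of the 18 samples, which at 3 reads allows up to 0.0577 to 0.166 CPM depending on the sample. The 4 TWEAK samples with a read of Kmo or Haao had between 1 and 2 reads of either, and these genes were not tested. Of the 7 enzymes 2 were thus tested, 4 had between 1 and 3 reads at most in any sample, and 1 had none.

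By the calling threshold used for all genes (an edgeR adjusted p below 0.05), the number of the 7 enzymes past it was 1 with a higher level (Ido2) for TWEAK at 6 h, where 11.7% of tested genes were called higher and 12% lower, and the same 1 at 24 h, where the shares were 18.3% and 20.7%. For NIK SMI1 with TWEAK against TWEAK it was 1 with a lower level at 6 h (5.7% of tested genes called lower and 5.34% higher) and 1 at 24 h (8.29% and 10.2%). For TWEAK with NIK SMI1 against vehicle it was 1 higher at 6 h (7.24% called higher and 6.7% lower) and 0 at 24 h (8.07% and 9.83%), and for the 2 vehicle groups it was 1, Afmid, higher at 24 h (15.5% higher and 14.4% lower). These contrasts were used in choosing the set, so the counts stand here only as a description.

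Genes that supply, use or control the pathway were then examined in 6 lists of 67 genes, of which 53 were tested. The lists too were chosen with earlier results of these data known. Their counts and adjusted p-values therefore describe these samples and are no independent evidence. In edgeR's quasi-likelihood test with Benjamini-Hochberg adjustment, 19 of them rose and 5 fell with TWEAK at 6 h, where 11.7% of all tested genes rose and 12% fell, and 19 rose and 11 fell at 24 h, where the shares were 18.3% and 20.7%. For NIK SMI1 with TWEAK against TWEAK 4 rose and 12 fell at 6 h (5.34% and 5.7% of all tested genes), and 5 rose and 15 fell at 24 h (10.2% and 8.29%). The median log2 fold change of all tested genes lay between −0.006 and 0.008 in these comparisons. The comparisons of TWEAK with vehicle and of NIK SMI1 with TWEAK share their TWEAK samples, so opposite signs in the 2 are partly built in.

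Downstream of kynurenine towards NAD, 11 genes of a list of 14 were tested. With TWEAK 1 fell at 6 h and 3 at 24 h, and 0 rose, with list medians of −0.12 and −0.10. With 12% and 20.7% of all tested genes falling at these times, the counts lower are near the background and are no result about the list. For NIK SMI1 with TWEAK against TWEAK 0 passed in edgeR at either time (2 at 6 h and 2 at 24 h at an unadjusted p below 0.05, and 0 in DESeq2), with medians of 0.06 and 0.10. Nadsyn1, the synthetase of the last step to NAD, fell from 21.8 ± 1.01 to 15.9 ± 1.19 CPM at 6 h (log2 fold change −0.44, SE 0.06, adjusted p = 3.94e-06) and from 21.4 ± 1.39 to 17.1 ± 0.787 CPM at 24 h (−0.32, SE 0.07, adjusted p = 0.0003; SD, n = 3). Kyat1, an aminotransferase that turns kynurenine into kynurenic acid, fell at 24 h from 12.5 to 9.99 CPM (−0.33, SE 0.08, adjusted p = 0.00204). Nmnat2, an NAD-forming adenylyltransferase counted with 10 to 32 reads per sample, had −0.92 (SE 0.36, adjusted p = 0.047) at 24 h. This last call was lost when any of 8 samples was left out (−0.94 to −0.65), namely each vehicle sample and TWEAK replicates 2 and 3 at 24 h, TWEAK replicate 1 and NIK SMI1 replicate 2 at 6 h, and NIK SMI1 replicate 2 at 24 h. Without TWEAK replicate 1 at 24 h Nmnat2 passed for NIK SMI1 (1.10).

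Among genes of tryptophan transport and of its charging onto tRNA, changes went in both directions. The list of 10 held transporters and the tRNA synthetases Wars and Wars2. Of its 9 tested genes, 2 rose and 3 fell with TWEAK at 6 h (11.7% and 12% of all tested genes), and 2 rose and 4 fell at 24 h (18.3% and 20.7%), with list medians of −0.04 and −0.06. The count higher at 24 h is near the background and is no result about the list. Slc7a5, the large neutral amino acid transporter LAT1, rose from 65.7 ± 0.9 to 85.2 ± 2.71 CPM at 6 h (0.39, SE 0.04, adjusted p = 9.51e-09) and from 84.6 ± 3.15 to 103 ± 3.39 CPM at 24 h (0.29, SE 0.04, adjusted p = 9.12e-07). Its partner chain Slc3a2 rose at 24 h (0.18, SE 0.03, adjusted p = 4.72e-05) and had 0.08 (adjusted p = 0.0813) at 6 h, which passed without TWEAK replicate 1 (0.11). Slc6a19, the brush border transporter of neutral amino acids, fell from 11.5 ± 1.14 to 6.93 ± 0.433 CPM at 6 h (−0.72, SE 0.10, adjusted p = 1.75e-06) and from 9.67 ± 0.868 to 5.32 ± 1.06 CPM at 24 h (−0.89, SE 0.11, adjusted p = 2.35e-07). Slc7a6 also fell at both times (−0.26 and −0.14), and Wars, the tryptophanyl-tRNA synthetase, fell by a small margin at 24 h from 229.9 to 214.5 CPM.

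With NIK SMI1, Slc6a19 rose back to 9.49 ± 0.346 CPM at 6 h (0.44, SE 0.11, adjusted p = 0.00537 against TWEAK) and to 7.5 ± 0.296 CPM at 24 h (0.54, SE 0.11, adjusted p = 0.000651), and Slc7a6 rose at both times (0.19 and 0.15). Slc3a2 fell at 24 h (−0.13, adjusted p = 0.00483). For Slc7a5 the effect of NIK SMI1 was −0.13 at 6 h (adjusted p = 0.0313) and −0.04 at 24 h (adjusted p = 0.622), and the 6 h call was lost without TWEAK replicate 3 (−0.10) or without NIK SMI1 replicate 2 (−0.13) or 3 (−0.10). The aromatic amino acid transporter Slc16a10 fell with TWEAK at 6 h (−0.39, adjusted p = 0.0208) and 24 h (−0.56, adjusted p = 0.000328) and had 0.33 with NIK SMI1 at 24 h (adjusted p = 0.0465). Its 6 h call was lost without vehicle replicate 3 (−0.30) or TWEAK replicate 2 (−0.34), and that for NIK SMI1 was lost on leaving out any of 11 samples (0.25 to 0.37), namely all TWEAK samples of both times, all vehicle samples at 24 h, and NIK SMI1 replicates 2 and 3 at 24 h. Slc7a8, counted with 2 to 24 reads per sample, had 1.39 (SE 0.46, adjusted p = 0.026) with TWEAK at 6 h, a call lost without vehicle replicate 1 (1.35), vehicle replicate 3 (1.26) or TWEAK replicate 1 (1.05). For Slc7a8 with NIK SMI1 at 24 h the value was −1.50 (adjusted p = 0.0531), which passed without TWEAK replicate 1 or 3 or NIK SMI1 replicate 2 at 6 h or TWEAK replicate 3 at 24 h (−1.83 to −1.50).

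Of 9 genes of the routes that use tryptophan for serotonin, melatonin or indole products, 3 were tested. Maoa, an amine oxidase at 31.1 to 34.9 CPM in the group means, and Il4i1, an amino acid oxidase near 1 CPM, did not pass in any of the 4 comparisons of TWEAK with vehicle or NIK SMI1 with TWEAK. Maob was called lower with TWEAK at 24 h (−1.90, SE 0.65, adjusted p = 0.0227) and lower again with NIK SMI1 at 24 h (−5.25, SE 1.72, adjusted p = 0.0344). It had 0 reads in exactly the 4 samples without reads of Ins1, Ins2 and Gcg and 5 to 35 reads in the other 14. The first call was lost without TWEAK replicate 2 at 24 h (−1.15) or vehicle replicate 2 (−1.52), and the second without TWEAK replicate 1 (−5.02) or 3 (−4.38) or any 1 of the 3 samples with NIK SMI1 (−5.26 to −5.23), and no comparison remains among the samples without islet reads, all of which had 0. The part of islet RNA in these calls was not tested. Of all tested genes 18.3% were called higher and 20.7% lower with TWEAK at 24 h, and 10.2% and 8.29% with NIK SMI1. With 3 tested genes, 1 call in each of these comparisons is no result about the list.

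Among the aryl hydrocarbon receptor, which kynurenine can activate, and its partners and targets, 7 of 10 genes were tested. In edgeR 0 passed with TWEAK at 6 h, where 1 had an unadjusted p below 0.05, and 0 with NIK SMI1 at either time, where 0 did, and DESeq2 called 0 in each of the 3. At 24 h only the quinone reductase Nqo1 passed with TWEAK, falling from 2.03 to 1.29 CPM (−0.62, SE 0.21, adjusted p = 0.0178), and this call was lost without vehicle replicate 2 (−0.44) or TWEAK replicate 2 (−0.60). Of all tested genes 11.7% rose and 12% fell with TWEAK at 6 h, and 18.3% and 20.7% at 24 h. With NIK SMI1 the shares were 5.34% and 5.7% at 6 h and 10.2% and 8.29% at 24 h. The counts of this list are near these shares and are no result about it. Arnt, the partner subunit of the receptor, had log2 fold changes between −0.06 and 0.03 in the 4 comparisons. Of the classical targets of the receptor, Cyp1a1 had at most 4 reads in a sample and Cyp1a2 had 0, while Tiparp was at 36.0 to 42.0 CPM and Cyp1b1 at 2.24 to 4.25 CPM in the group means.

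Of the regulators of Ido1 and Ido2 known from other cells, 13 of a list of 14 were tested. With TWEAK 9 rose and 1 fell at either time, with list medians of 0.21 and 0.15, where 11.7% and 12% of all tested genes rose and fell at 6 h and 18.3% and 20.7% at 24 h. With NIK SMI1 6 fell at 6 h (5.7% of all tested genes) and 6 fell and 1 rose at 24 h (8.29% and 10.2%), with medians of −0.14 and −0.10. Interferon gamma itself (Ifng) had 0 reads in every sample. Its receptor chain Ifngr2 rose from 49.5 ± 2.64 to 98.4 ± 2.9 CPM at 6 h (1.01, SE 0.05, adjusted p = 2.52e-15) and from 45.4 ± 2.4 to 89.1 ± 2.43 CPM at 24 h (0.97, SE 0.05, adjusted p = 7.27e-15), and fell with NIK SMI1 to 77.6 ± 3.34 and 64.9 ± 2.97 CPM (−0.35, adjusted p = 7.11e-06, and −0.46, adjusted p = 3.04e-08). The transcription factor Irf1 rose by 0.51 and 0.53 (SE 0.05 for both, adjusted p = 2.65e-09 and 6.63e-10) and fell with NIK SMI1 (−0.28 and −0.39).

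Socs1 and Socs3, feedback inhibitors of cytokine receptors, rose together. Socs1 rose from 2.46 ± 0.215 to 5.93 ± 0.497 CPM at 6 h (1.27, SE 0.13, adjusted p = 7.71e-09) and from 3.11 ± 0.167 to 8.92 ± 0.646 CPM at 24 h (1.53, SE 0.13, adjusted p = 1.54e-10), and fell with NIK SMI1 at 24 h to 4.86 ± 0.668 CPM (−0.86, SE 0.11, adjusted p = 1.75e-06). At 6 h Socs1 had −0.42 with NIK SMI1 (adjusted p = 0.0271), a call lost without TWEAK replicate 1 (−0.37) or 2 (−0.42) or NIK SMI1 replicate 1 (−0.37) or 2 (−0.34). Socs3 had 0.51 and 0.82 with TWEAK (adjusted p = 2.83e-07 and 6.5e-11) and −0.48 with NIK SMI1 at 24 h (adjusted p = 1.29e-06), while −0.19 at 6 h (adjusted p = 0.0568) passed without vehicle replicate 1 (−0.19) or TWEAK replicate 2 (−0.24). Eif2ak4, the GCN2 kinase that senses uncharged tRNA, rose at both times (0.20 and 0.30). The exception was Irf8, a myeloid factor also linked to Ido1, which fell from 1.08 ± 0.323 to 0.482 ± 0.0479 CPM at 6 h (−1.12, SE 0.27, adjusted p = 0.00204) and from 2.18 ± 0.118 to 0.593 ± 0.146 CPM at 24 h (−1.92, SE 0.25, adjusted p = 5.26e-07), and rose with NIK SMI1 to 1.36 ± 0.164 CPM at 24 h (1.24, SE 0.26, adjusted p = 0.000775).

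Markers of macrophages and dendritic cells, cell types in which Ido1 and Ido2 are known, were compared over the same samples. The summed level of the 8 markers at 24 h was 21.4 to 22.4 CPM with vehicle, 24.5 to 26.1 with TWEAK and 19.8 to 21.1 with TWEAK and NIK SMI1. At 6 h the ranges were 18.6 to 19.7, 18.9 to 21.5 and 18.6 to 19 CPM. Nearly all of the sum was Cd68 and Csf1r. Each other marker had a mean of at most 0.133 CPM with vehicle or TWEAK at 24 h. The higher sum with TWEAK at 24 h came from Csf1r, as Cd68 was at 13.4 CPM with vehicle and 12.9 CPM with TWEAK. Only Cd68 and Csf1r were tested, Csf1r rising with TWEAK at 24 h from 8.1 to 11.9 CPM (0.57, SE 0.10, adjusted p = 2.4e-05) and Cd68 having −0.05 (adjusted p = 0.649). Of the defining markers, Lyz2 had at most 1 read, Adgre1 at most 4 and Ptprc at most 11 in any sample, and Itgax had at most 3. The part of such cells in the Ido2 values was not tested.

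Of the TWEAK receptor and the non-canonical NF-κB pathway all 10 genes were tested. With TWEAK 8 rose at 6 h (11.7% of all tested genes), and 8 rose and 1 (Chuk) fell at 24 h (18.3% and 20.7%), with list medians of 0.84 and 1.05. With NIK SMI1, 5 fell and 2 rose at 6 h (5.7% and 5.34%), and 7 fell and 1 rose at 24 h (8.29% and 10.2%), with medians of −0.15 and −0.41. The receptor gene Tnfrsf12a did not pass with TWEAK, at 486.1 ± 16.3 CPM with vehicle and 471.9 ± 16.8 with TWEAK at 6 h (adjusted p = 0.652) and 412.2 ± 13.8 and 414.2 ± 13.8 at 24 h (adjusted p = 0.904). Traf1, a signalling adaptor, went from 1.18 ± 0.383 to 22.9 ± 0.48 CPM at 6 h (4.36, SE 0.11, adjusted p = 4.34e-21) and from 1.15 ± 0.238 to 57.5 ± 2.47 CPM at 24 h (5.68, SE 0.11, adjusted p = 1.07e-23), and with NIK SMI1 it stood at 6.05 ± 0.3 and 10.7 ± 0.559 CPM (−1.92 and −2.43 against TWEAK). Unlike Ido2 at 24 h, whose samples with NIK SMI1 overlapped vehicle, Traf1 with NIK SMI1 stayed above vehicle (3.24, SE 0.14, adjusted p = 6.39e-16). A difference between the genes in this respect was not tested.

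Birc3, an inhibitor of apoptosis protein that limits NIK, rose by 2.48 and 2.83 (adjusted p = 1.49e-19 and 3.88e-20) and fell with NIK SMI1 (−0.82 and −1.22), and its paralogue Birc2 rose by 0.98 and 1.19 and fell by 0.48 and 0.66. Nfkb2 rose by 1.90 and 1.87 and fell by 0.39 and 0.55, and Relb rose by 0.82 and 1.16 and fell by 0.22 and 0.59. Map3k14, the gene of NIK itself, rose with TWEAK (0.86 and 0.95, adjusted p = 1.13e-12 and 1.26e-13) and was higher still with NIK SMI1, at 131.7 ± 9.29 CPM against 97.4 ± 3.89 with TWEAK at 6 h (0.43, SE 0.05, adjusted p = 1.3e-06) and 139 ± 6.34 against 110.8 ± 6.34 at 24 h (0.33, SE 0.05, adjusted p = 3.38e-05).

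**Figure D3:**
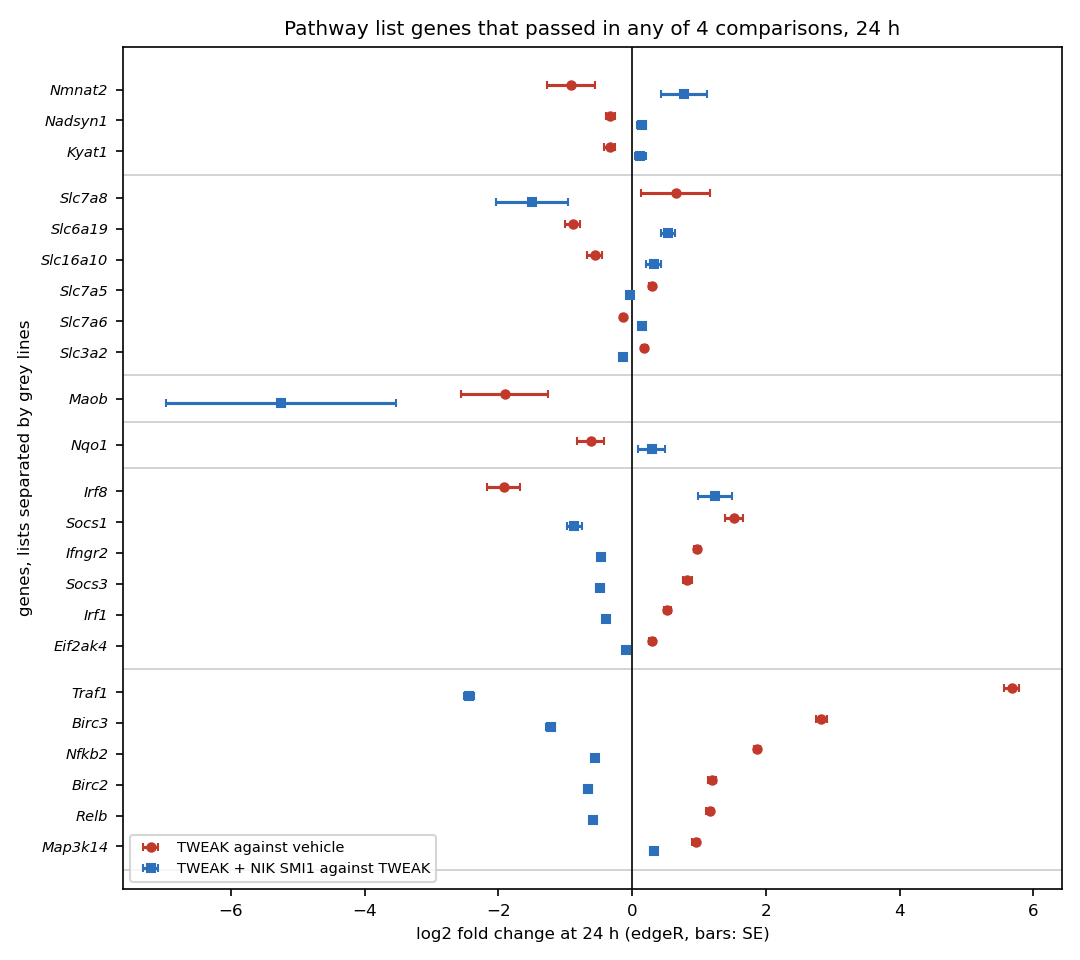
Log2 fold change at 24 h (edgeR, bars ± SE) of the named pathway list genes that passed the test in at least 1 of the 4 comparisons of TWEAK with vehicle and NIK SMI1 with TWEAK, for TWEAK against vehicle (circles) and TWEAK with NIK SMI1 against TWEAK (squares), with lists separated by grey lines from the NAD branch at the top to NF-κB at the bottom. Traf1 has the highest value with TWEAK (5.68), Map3k14 is positive in both comparisons, and the wide bars of Maob go with 0 reads in all 3 samples with NIK SMI1.

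The genes whose pattern over the 18 samples was most like that of Ido2 were sought by Pearson's correlation of log2(CPM + 0.1), as a description. They were Cysrt1 (r = 0.966), Vgll4 (0.960), Dusp22 (0.958), Tnip1 (0.955) and Wnt11 (0.953), whereas the median over the other 15520 tested genes was −0.04 and 63 genes exceeded 0.9. The 18 values share groups, so a gene that answers TWEAK and NIK SMI1 in the same order scores high whatever the size of its change. Cysrt1 was the nearest in level, with group means of 0.514, 1.18 and 0.762 CPM for vehicle, TWEAK, and TWEAK with NIK SMI1 at 6 h and 0.546, 1.64 and 0.631 CPM at 24 h. Tnip1, which encodes an inhibitor of NF-κB signalling that binds A20, was expressed far higher, with 88.8, 144.4 and 113.7 CPM at 6 h and 79.5, 149.9 and 95.8 CPM at 24 h. At 24 h the fitted log2 difference between TWEAK and vehicle was 1.59 for Cysrt1, 0.55 for Vgll4, 1.22 for the phosphatase gene Dusp22, 0.91 for Tnip1 and 1.57 for the secreted ligand gene Wnt11, all smaller than the 6.46 of Ido2. With log2(CPM + 1) 2 of these 5 stayed among the closest 5, and with Spearman's correlation 0 did, Cysrt1 then being 6th.

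**Figure D4:**
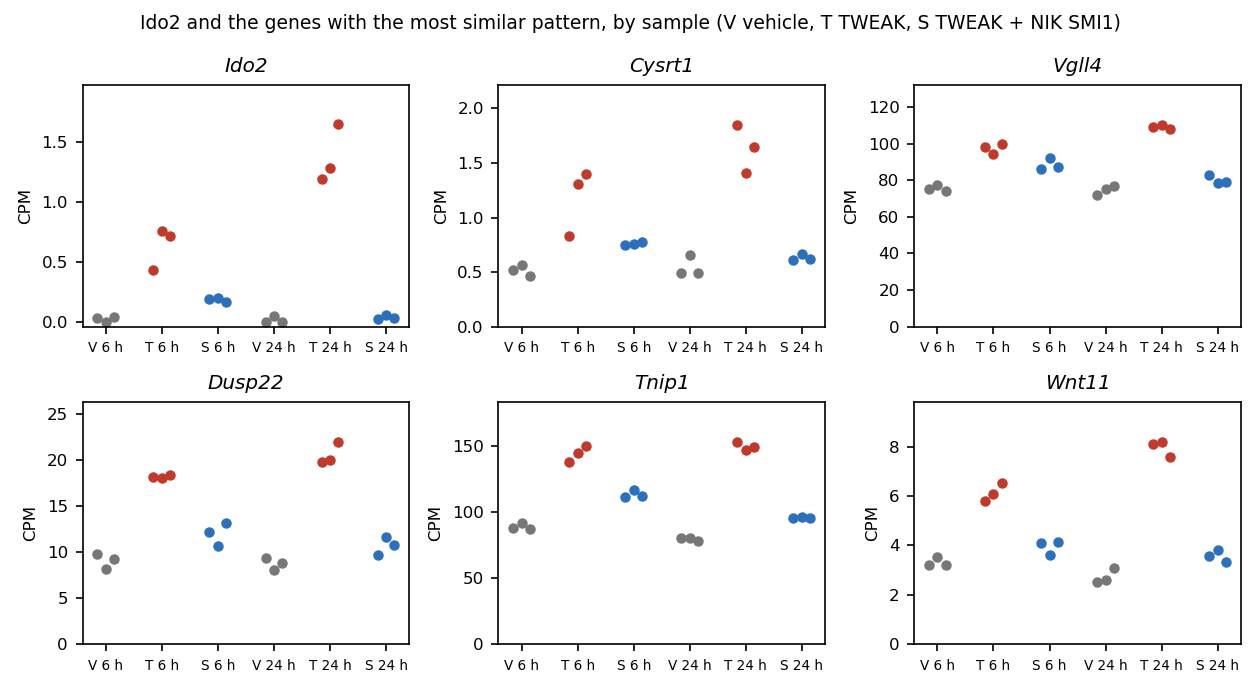
CPM by sample of Ido2 and of the 5 genes most correlated with it over the 18 samples, each on its own linear axis (V vehicle, T TWEAK, S TWEAK with NIK SMI1; each point is 1 sample). In all 6 panels the TWEAK samples lie highest within each time, while only Ido2 starts near 0 in the vehicle samples.

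The genes beside Ido2 and Ido1 were also examined, since those chosen by position were not chosen by response. On the one side lie Sfrp1, Zmat4 and Tcim, and on the other Adam18, Adam3 and Adam5. Tcim, a transcriptional and immune response regulator, rose with TWEAK from 73.3 ± 1.56 to 102.9 ± 3.4 CPM at 6 h (0.50, SE 0.04, adjusted p = 1.16e-10) and from 66.6 ± 2.41 to 123.7 ± 3.87 CPM at 24 h (0.89, SE 0.04, adjusted p = 8.61e-16). With NIK SMI1 it fell to 82.2 ± 2.25 CPM (−0.33, SE 0.04, adjusted p = 1.83e-06) and 89.2 ± 4.05 CPM (−0.48, SE 0.04, adjusted p = 6.36e-10). Sfrp1, a secreted Wnt antagonist with 2 to 26 reads per sample, had −0.24 and −0.75 with TWEAK (adjusted p = 0.761 and 0.149). Zmat4 and Adam18, Adam3 and Adam5 had at most 4 reads in any sample and were not tested.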

How the data were processed

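RNASeq was performed by the authors on 18 samples of murine RPTEC. Per the study's methods, reads were aligned with GSNAP through HTSeqGenie to NCBI build 37, and the deposited counts are uniquely aligned reads in the exons of each Entrez gene, without normalization. The deposited RPKM values and exonic widths come from the same files, and RPKM entered no test. The labels and methods differ on sequencer, read length and input RNA. The labels name DESeq2 among the tools, and no DESeq2 result of the authors was used. DESeq2 was run here only as an alternative.

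Symbols were matched by Entrez identifier (31049 of 36528). CPM used total counts per sample (18040966 to 51956444). Groups were compared in 1 fit of 18 samples with edgeR 4.0.16 (TMM, quasi-likelihood test, Benjamini-Hochberg adjustment) under R 4.3.3, for genes with over 10 reads in 4 samples or more. The biological coefficient of variation was 0.0404. Standard errors came from the F statistic, and ratios of summed reads have exact conditional intervals (95%). Chi-square values per gene between samples of a group (2.2 to 10.0) showed no duplicated library. Scripts were tested on simulated data.

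Named were all 7 enzymes, up to 6 called genes per list by size of change (filled with the highest expressed to 3), the 5 genes most correlated with Ido2, 3 neighbours on each side of Ido2 and Ido1, and, chosen after their values were seen, Wars, Chuk, Cyp1a1, Cyp1a2, Tiparp, Cyp1b1, Tnfrsf12a, Ttr, Ifng, Csf1r and Cd68. Of the genes this rule gives, 1 is not reported here. The enzymes, lists and rules were chosen with earlier results of these data known. Positions and sequences come from GENCODE M21 (GRCm38) and were not converted. Alternatives were DESeq2 1.42.0, its size factors in edgeR, no filter, filterByExpr, each time alone, leaving out each sample, and leaving out samples with islet reads; leaving out samples without islet reads was added after seeing the data.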

Additional observations from a re-analysis of the deposited data

Results flagged for a closer look

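The effects of TWEAK and of NIK SMI1 were compared between 24 h and 6 h for the named list genes and for the neighbours of Ido2 by an interaction contrast in edgeR, with p-values adjusted over all 15521 tested genes, and those that passed are listed here. The TWEAK effect was larger at 24 h than at 6 h for Traf1, by 1.31 on the log2 scale (SE 0.22, adjusted p = 0.000122), for Tcim, by 0.39 (SE 0.06, adjusted p = 3.3e-05), for Relb, by 0.34 (SE 0.07, adjusted p = 0.00101), and for Socs3, by 0.31 (SE 0.09, adjusted p = 0.0297). The NIK SMI1 effect was more negative at 24 h for Traf1, with a difference of −0.52 (SE 0.12, adjusted p = 0.0118), for Birc3, with −0.40 (SE 0.10, adjusted p = 0.0151), and for Relb, with −0.37 (SE 0.06, adjusted p = 0.000942). In each of these the 24 h effect had the same sign as the 6 h effect. The share of all tested genes that passed these contrasts is not given here. Whether such a difference between the times is unusual for these genes therefore cannot be read from this list. No such test is given for Ido2, whose values chose it. Groups of 3 samples are too small to test for a sample that stands apart.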

How the results depend on the processing

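Ido2 kept its sign in 96 of 96 alternatives run over the 4 comparisons of TWEAK with vehicle and of NIK SMI1 with TWEAK. Ido2 was selected on these comparisons, and many alternatives left out a sample of a group outside the comparison. A change of sign was therefore hardly possible, and the count is given only as a description. Leaving out 1 sample at a time gave log2 fold changes of 4.04 to 5.15 for TWEAK at 6 h, 5.61 to 8.60 for TWEAK at 24 h, −1.95 to −1.59 for NIK SMI1 at 6 h and −5.53 to −4.81 for NIK SMI1 at 24 h. With DESeq2 the first of these was 4.70 and the second 6.64. The number of list genes called stayed within 1.5 times its value in every alternative run for every comparison. Of 2592 alternative values for 108 results of single list genes, 2528 stayed on the same side of the threshold, 55 calls were lost and 9 gained, and 0 called values reversed. Besides single samples, the Nmnat2 call for TWEAK at 24 h was lost with DESeq2, without a filter, with filterByExpr and without the samples that lack islet reads, that of Slc7a8 for TWEAK at 6 h with DESeq2, that of Slc16a10 for NIK SMI1 at 24 h with DESeq2 and without a filter, and those of Slc16a10 for TWEAK and of Slc7a5 and Socs1 for NIK SMI1, all at 6 h, when each time was fitted alone. Without the samples that lack islet reads, Slc7a5 for NIK SMI1 at 6 h and Nqo1 and Maob for TWEAK at 24 h were lost, and without the samples with islet reads Slc16a10 and Maob for NIK SMI1 at 24 h. Slc7a8 for NIK SMI1 at 24 h passed when that time was fitted alone. The cause was not tested. Leaving out samples with islet reads kept 1 TWEAK and 3 NIK SMI1 samples, so only that comparison at 24 h could be made, and the lone sample is assumed to vary like the others. No paired analysis was possible because the labels give no replicate numbers. Depth limits Ido1, Tdo2, Kmo, Kynu and Haao to statements on detection.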
